A study of Caenorhabditis elegans with 5 samples.

Results

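The glutathione S-transferases (GSTs) of Caenorhabditis elegans were taken as all genes whose symbol in the platform annotation starts with gst-, gsto- or gstk-. They numbered 45 of the 17118 genes for which an Affymetrix probe set named a single gene, and 28 of the 45 lay past the level filter described below. The gene table of WBcel235 holds 49 genes with such symbols, and gst-25, gst-34, gst-35 and gst-37 were not analysed here. The arrays came from wild-type hermaphrodites, young adults of an age-synchronised culture grown on Escherichia coli OP50. The exposed groups were kept for 24 h with benzene, with toluene, with formaldehyde or with a mix of the 3 (BTF mix), in a potassium and sodium chloride medium at 20 °C without food. The control group was not exposed, and the sources used here do not say whether it too was kept without food in that medium, or at which concentrations the compounds were used. Each group was 1 array of RNA from whole animals, so no difference below has a replicate check, an error or a test.

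GSTs join the thiol of glutathione to electrophilic carbon, sulphur or nitrogen of foreign compounds and of products of lipid peroxidation, which makes them more water-soluble and marks them for export or breakdown. In C. elegans the family is large, many members lie side by side in the genome, and several are switched on by the transcription factor SKN-1, the nematode counterpart of Nrf2. Omega-class members (gsto-) act more as thiol transferases and reductases, and kappa-class members (gstk-) belong to mitochondria and peroxisomes. Formaldehyde reacts with glutathione by itself, and the adduct is oxidised by the class III alcohol dehydrogenase that adh-5 encodes. In mammals benzene is first oxidised by cytochrome P450 and part of the product is joined to glutathione, while toluene is oxidised mostly at its methyl group.

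All values are probe set intensities on a linear scale as deposited. Differences are of log2(intensity + 16), which understates those of dim genes, and a positive value means higher in the group named first. A gene was past the level filter when its mean log2 value over the 5 arrays reached 6.05, the 40th percentile of all genes, and 2-fold was a size threshold with no test behind it. The median intensity over all probe sets lay between 82.3 and 84.8 on the 5 arrays. When arrays were scaled on 24 poly-A spike probe sets instead, the median difference of all genes from control moved to 0.30 with benzene, 0.08 with toluene, 0.07 with formaldehyde and -0.45 with the mix. Differences below thus take the overall level as equal on all arrays. The ratio of the 5' to the 3' actin probe sets was 0.30 with benzene, 0.27 with toluene, 0.30 with formaldehyde and 0.26 with the mix, against 0.20 in control. For the Gapdh probe sets it was 0.41 with benzene, 0.39 with toluene, 0.36 with formaldehyde and 0.29 with the mix, against 0.33 in control. The part of these ratios in the results was not tested. All 23 fixed markers of intestine, muscle, hypodermis, neurons, germline, sperm and yolk production were measured, the dimmest at 47.4.

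A subset of the family stood higher after formaldehyde, while every other member except gst-20 lay within 2-fold of control. At 2-fold, 8 of 45 members were higher (gst-26, gst-36, gst-10, gst-27, gst-5, gsto-1, gst-6 and gst-28) and 1 was lower (gst-20), all past the level filter. Among all genes past the filter, 4.55% were 2-fold higher and 2.27% lower. Without a filter the shares were 2.82% higher and 1.41% lower of 17118 genes. The median difference of the 45 members was 0.07, against -0.01 for all genes. The upper quartile of the members was 0.54, against 0.05 for all genes. In whole-animal RNA, more cells of a type and more RNA per cell cannot be told apart.

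**Figure D1:**
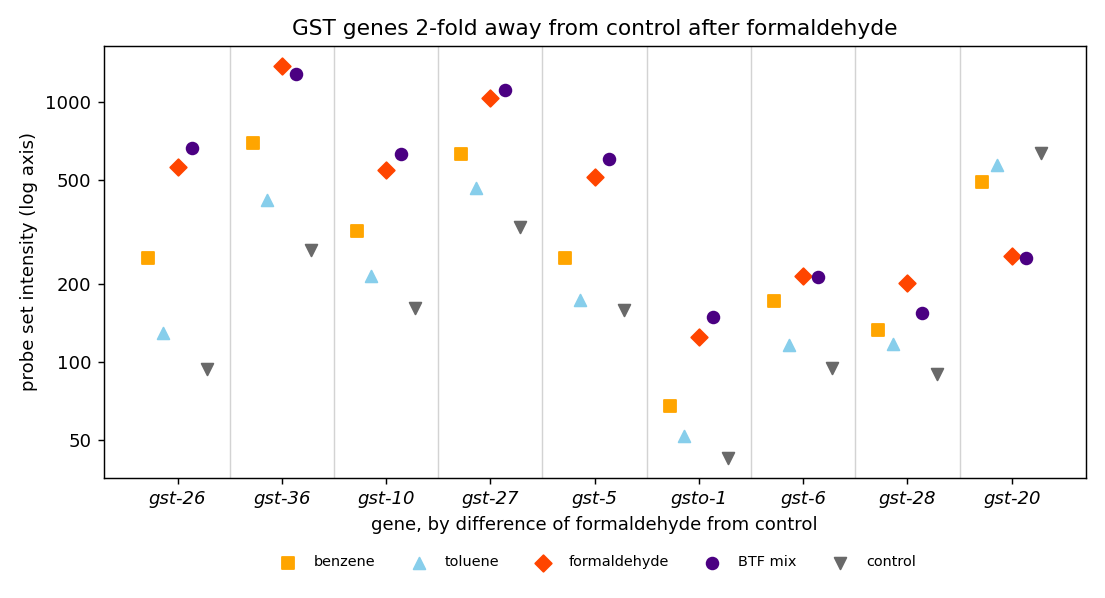
Probe set intensity (log axis) of the 9 GST genes 2-fold away from control after formaldehyde, 1 point per array for benzene, toluene, formaldehyde, BTF mix and control. In the 8 higher genes the formaldehyde and mix points lie on top and control at the bottom, and in gst-20 the order is turned round.

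gst-26 had an intensity of 251 with benzene, 129 with toluene, 562 with formaldehyde and 663 with the mix, against 94.3 in control. On the scale of intensity + 16, the formaldehyde array was 5.25-fold and the mix array 6.16-fold above control (log2 differences of 2.39 and 2.62). Among the 10271 genes past the filter, this placed gst-26 at rank 26 from the top after formaldehyde and at rank 11 after the mix. gst-36 had 695 with benzene, 422 with toluene, 1382 with formaldehyde and 1281 with the mix, against 269 in control. On the same scale its formaldehyde array was 4.91-fold and its mix array 4.56-fold above control (2.30 and 2.19). Both genes thus had control as their lowest array, toluene next, benzene between, and the formaldehyde and mix arrays close together on top.

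gst-10 encodes a pi-class enzyme that conjugates hydroxynonenal, an aldehyde from oxidised lipids. Its intensity was 319 with benzene, 214 with toluene, 549 with formaldehyde and 632 with the mix, against 162 in control. The differences were 1.67 for formaldehyde and 1.87 for the mix. gst-5, whose product has also been tied to removal of hydroxynonenal, had 252 with benzene, 172 with toluene, 513 with formaldehyde and 606 with the mix, against 158 in control (1.60 and 1.84 for the last pair of exposures). For gst-5 the toluene array was close to control, at a difference of 0.11. gst-27 had 629 with benzene, 465 with toluene, 1034 with formaldehyde and 1112 with the mix, against 329 in control. It stood at 1.60 for formaldehyde and 1.71 for the mix. The gst-27 probe set is marked as able to bind several transcripts, so related genes may share its signal.

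gsto-1, an omega-class gene tied to defence against oxidative stress in the nematode, had 67.6 with benzene, 51.8 with toluene, 124 with formaldehyde and 149 with the mix, against 42.7 in control. Its differences were 1.26 after formaldehyde and 1.49 after the mix. gst-6 had 172 with benzene, 116 with toluene, 213 with formaldehyde and 213 with the mix, against 95.0 in control, and lay just past 2-fold after both (1.05 and 1.04). gst-28 had 132 with benzene, 117 with toluene, 201 with formaldehyde and 154 with the mix, against 89.8 in control. It was 2-fold higher after formaldehyde (1.04) and not after the mix (0.69). With a pseudocount of 64 in place of 16, gsto-1, gst-6 and gst-28 stood at 0.82, 0.80 and 0.79 after formaldehyde, below 2-fold.

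gst-20 was the lower gene. It had 493 with benzene, 570.4 with toluene, 256 with formaldehyde and 252 with the mix, against 634 in control. Both arrays with formaldehyde were lower, by log2 differences of -1.26 and -1.28, while benzene stood at -0.35 and toluene at -0.15. Its order of arrays was the reverse of that of gst-26. Its probe set, the single one for the gene, is marked as able to bind several transcripts. With poly-A scaling gst-20 stayed 2-fold lower after formaldehyde (-1.14) and the mix (-1.84), and its sign after benzene turned (0.06).

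After the mix, 7 of 45 members were 2-fold higher and 1 lower, and 4.34% and 2.31% of the genes past the filter were. Without a filter the member counts were the same, and the shares of all genes were 2.66% higher and 1.43% lower. The 7 were all among the 8 of formaldehyde, and gst-28 was the one not shared. Both counts rest on the same control array. The median of the members after the mix was 0.10, against -0.01 for all genes. With poly-A scaling it turned to -0.29, against -0.45 for all genes. Under that scaling gst-26 (2.03), gst-36 (1.59), gst-10 (1.28), gst-5 (1.25) and gst-27 (1.12) were still 2-fold higher after the mix, whereas gsto-1 stood at 0.96 and gst-6 at 0.49.

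After benzene, 2 of 45 members were 2-fold higher, gst-36 at 1.32 and gst-26 at 1.28, and none was 2-fold lower. Among genes past the filter, 1.2% were 2-fold higher and 0.175% lower. Without a filter 3 of 45 members were higher, gst-21 included, and the shares of all genes were 0.724% higher and 0.105% lower. gst-10 and gst-27 followed at 0.91 and 0.90, then gst-6 at 0.76 and gst-5 at 0.62. With poly-A scaling 6 members past the filter were 2-fold higher after benzene, those 6 genes, and 3.31% of all genes past the filter were. After toluene no member was 2-fold away in either direction, against 0.107% of genes higher and 0.0974% lower. The highest member after toluene was gst-36 at 0.62 and the lowest was gst-13 at -0.64.

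**Figure D2:**
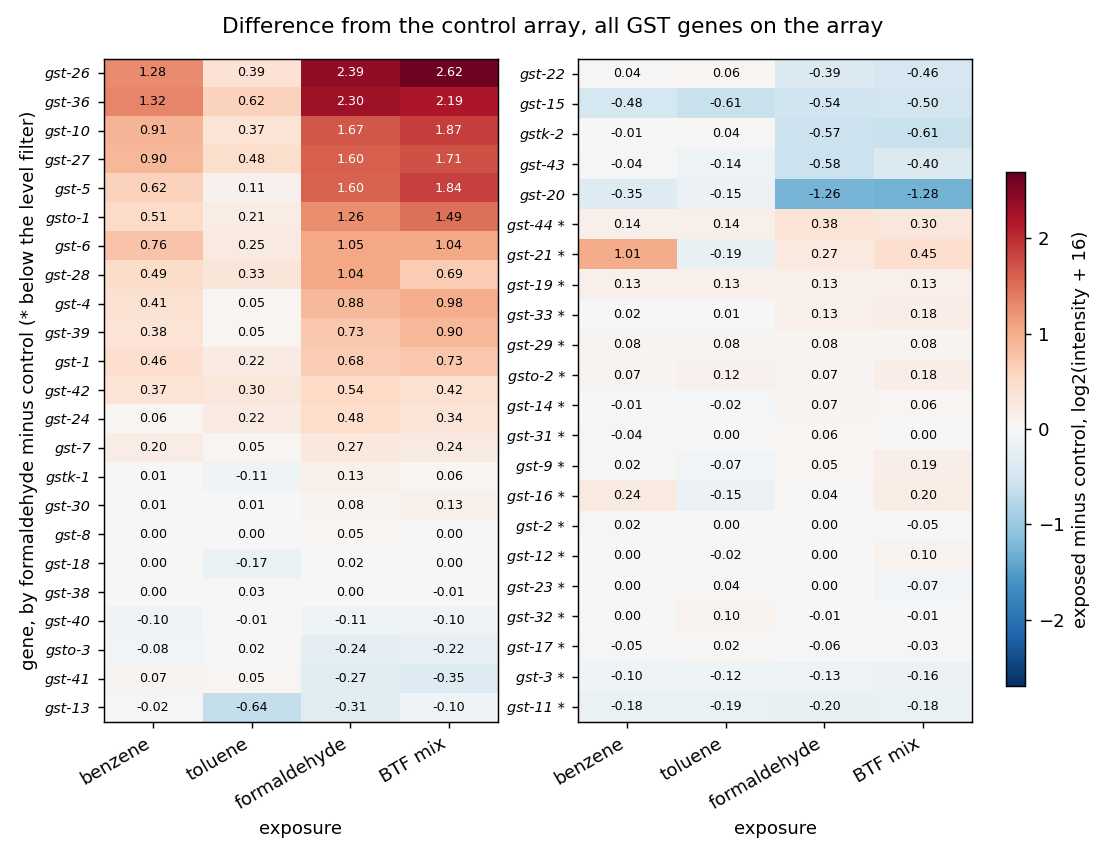
Log2 difference of each exposed array from the control array for all 45 GST genes (rows, ordered by formaldehyde minus control, with genes below the level filter marked and placed last). The 8 genes at the top carry the values above 1, toluene is pale throughout, and genes below the filter lie near 0 except gst-21 after benzene.

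gst-4, gst-1, gst-7 and gst-39 fell short of the 2-fold threshold after formaldehyde, which gst-5 and gst-10 passed. gst-4, the gene most used as a reporter of SKN-1 activity, had 118.6 with benzene, 88.2 with toluene, 170.2 with formaldehyde and 183 with the mix, against 84.9 in control. Its differences were 0.41, 0.05, 0.88 and 0.98 in the same order. With the pseudocount added, both formaldehyde-containing arrays were thus close to 2-fold without reaching it. The intensities alone were past 2-fold on both, though only just after formaldehyde. With quantile normalization, and with a pseudocount of 1, 8 members were 2-fold higher after the mix. gst-28 stayed below 2-fold there (0.72 and 0.78), so a member outside the 7 named for the mix crossed. With a pseudocount of 1 it was gst-4, whose intensity after the mix stays past 2-fold of control when 1 is added to each. Which member crossed with quantile normalization was not followed. gst-1, a pi-class gene, had 2902 with benzene, 2455 with toluene, 3369 with formaldehyde and 3503 with the mix, against 2104 in control (0.46, 0.22, 0.68 and 0.73). gst-7 lay near control on every array, with 1144 with benzene, 1034 with toluene, 1210.0 with formaldehyde and 1182 with the mix, against 997 in control. gst-39 was at 0.73 after formaldehyde and 0.90 after the mix.

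gsto-2 and gsto-3 lay nearer control than gsto-1. gsto-3 had 303 with benzene, 325 with toluene, 268 with formaldehyde and 274 with the mix, against 321 in control, and gsto-2, below the level filter, lay between 0.07 and 0.18. gstk-2, a kappa-class gene, had 287 with benzene, 298 with toluene, 189 with formaldehyde and 184 with the mix, against 289 in control, with differences of -0.57 after formaldehyde and -0.61 after the mix. Its probe set is marked as able to bind several transcripts. gst-42, a zeta-class gene whose product acts in tyrosine breakdown as maleylacetoacetate isomerase, had 194 with benzene, 184 with toluene, 219.8 with formaldehyde and 200.4 with the mix, against 146 in control, and stood between 0.30 and 0.54. gst-43 stood at -0.58 after formaldehyde and -0.40 after the mix, and gst-44, below the filter, at 0.38 and 0.30.

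A few members had patterns of their own. gst-15 was below control on all 4 exposed arrays, at 62.6 with benzene, 56.0 with toluene, 59.5 with formaldehyde and 61.9 with the mix, against 93.8 in control. Its differences were close together, between -0.61 and -0.48. gst-13 was lowest after toluene, with 456 with benzene, 290.2 with toluene, 370.2 with formaldehyde and 429 with the mix, against 463 in control. gst-21 was highest after benzene, with 87.0 with benzene, 28.7 with toluene, 45.8 with formaldehyde and 53.8 with the mix, against 35.1 in control. It lay below the level filter, so its difference of 1.01 after benzene was not counted. gst-22 and gst-41 were lower after formaldehyde (-0.39 and -0.27) and the mix (-0.46 and -0.35) and stood between 0.04 and 0.07 after benzene and toluene. The gst-41 probe set is marked as able to bind several transcripts.

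By the largest absolute difference from control, the 4 members closest to control past the filter were gst-38, gst-8, gst-40 and the kappa-class gene gstk-1. gst-38 had 114 with benzene, 117 with toluene, 114 with formaldehyde and 113 with the mix, against 114 in control. gst-8 had 58.6 after formaldehyde and 56.0 on the other 4 arrays. gst-40 lay between -0.11 and -0.01, and gstk-1 between -0.11 and 0.13. gst-30, with differences between 0.01 and 0.13, came next. Of the 45 members 13 had the same value on at least a pair of arrays, as had 47.2% of all probe sets. The 17 members below the filter lay between -0.20 and 0.45 in all comparisons with control apart from gst-21 after benzene.

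Levels came in the rising order control, toluene, benzene, formaldehyde for 14 of the 45 members, against 7.68% of all 17118 genes. Past the filter it was 13 of 28 members, against 10.5% of genes. They were gst-1, gst-4, gst-5, gst-6, gst-7, gst-10, gst-26, gst-27, gst-28, gst-36, gst-39, gst-42 and gsto-1, and gst-33 was the one below the filter. They thus comprised all 8 members 2-fold higher after formaldehyde, and 5 that were not 2-fold higher in any exposure. The order takes in dose, which is not known and may differ between compounds. It is also the order described above for gst-26 and gst-36 on these same arrays. Members 2-fold higher after formaldehyde have its ends in place by selection. The counts thus describe these arrays and test nothing.

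**Figure D3:**
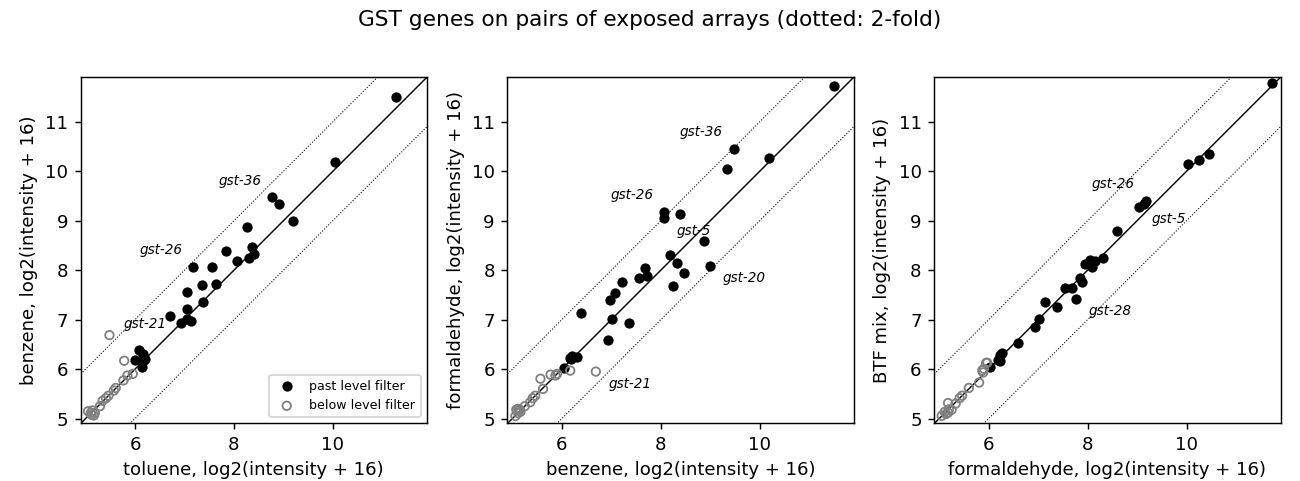
Log2(intensity + 16) of the 45 GST genes on pairs of exposed arrays: benzene against toluene, formaldehyde against benzene, and BTF mix against formaldehyde. The solid line is equality and dotted lines are 2-fold. Points hug the line in the third panel, and gst-26 lies past the dotted line in the second.

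Direct differences between exposed arrays need no control array. Between benzene and toluene (methylbenzene), no member past the filter was 2-fold apart, and 0.185% of genes were 2-fold higher and 0.0195% lower after benzene. gst-26 stood 0.89 higher after benzene than after toluene, gst-36 0.70, gst-13 0.62, gst-10 0.54, gst-6 0.52 and gst-5 0.51. The lowest member was gst-20 at -0.20. The median of the 45 members was 0.02, against 0.00 for all genes. gst-21, below the filter, stood 1.204 higher after benzene. Concentrations are not known, so these values set arrays side by side and not compounds at a matched dose.

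Between formaldehyde and benzene, gst-26 was the member 2-fold apart, 1.11 higher after formaldehyde, and 1.11% of genes past the filter were 2-fold higher and 1.24% lower. gst-5 (0.98) and gst-36 (0.97) came close to 2-fold, and gst-10 (0.76), gsto-1 (0.75) and gst-27 (0.70) followed. gst-6 was nearer, at 0.29. On the low side stood gst-20 (-0.90), gstk-2 (-0.56) and gst-43 (-0.53), and gst-21 (-0.74), which was below the filter. With poly-A scaling gst-26 fell short of 2-fold (0.83) and gst-20 passed it (-1.201).

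Between the mix and formaldehyde, no member was 2-fold apart, and 0.0389% of genes past the filter were 2-fold higher and 0.0% lower. The members ranged from -0.35 (gst-28) to 0.24 (gst-5). gst-26 stood 0.23 higher in the mix, gsto-1 0.23, gst-13 0.21 and gst-10 0.20, while gst-36 stood lower at -0.11. The mix lay above all 3 single compounds for 13 of 45 members, as it did for 21.4% of all genes, and the largest such gap was that of gst-5 at 0.24. It lay below all 3 for 8 members, by at most -0.08 (gst-41), and for 22.4% of all genes. With poly-A scaling, which lowers the mix array as a whole, the median of the members moved to -0.51 for mix minus formaldehyde and that of all genes to -0.57.

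**Figure D4:**
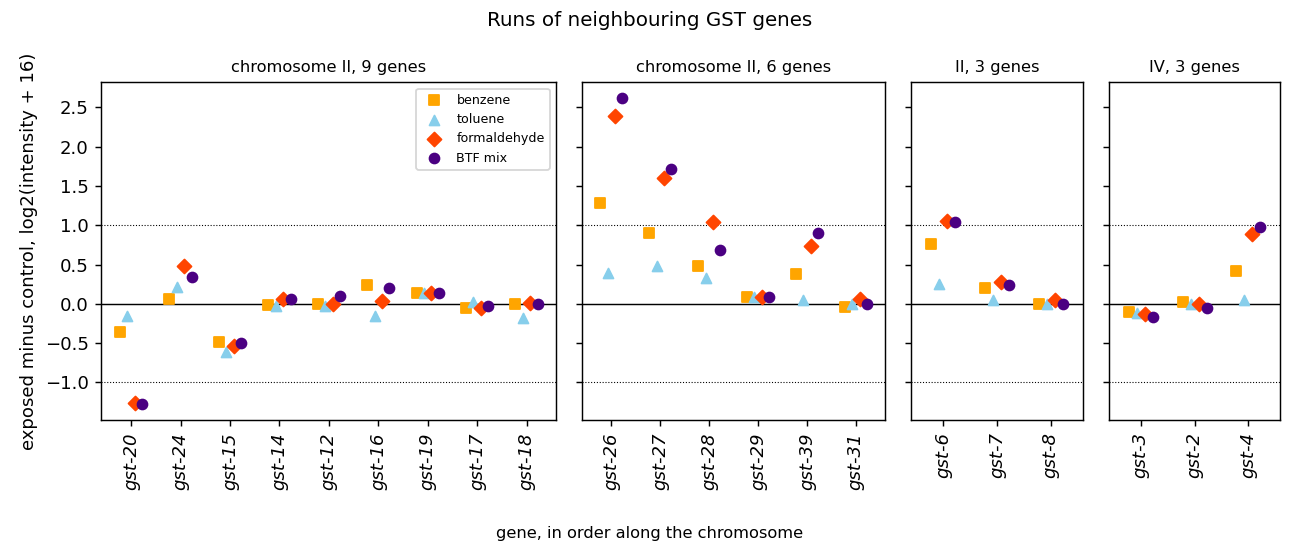
Log2 difference of each exposed array from control for GST genes that neighbour one another, in order along the chromosome, with dotted lines at 2-fold. Values above 2-fold belong to gst-26, gst-27 and gst-28 at 1 end of the 6-gene run and to gst-6, while most genes of the 9-gene run lie near 0 and gst-20 at its end lies below.

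In the gene order of WBcel235, 24 of the 49 GST genes lay in 5 runs with no other protein-coding gene between them, and 24 of the 45 measured members were on chromosome II. Within runs, neighbours differed in response. The 6-gene run on chromosome II held gst-26, gst-27 and gst-28, all 2-fold higher after formaldehyde, followed by gst-29 (0.08), gst-39 (0.73) and gst-31 (0.06). gst-29 and gst-31 were below the level filter. The 9-gene run on the same chromosome had no member 2-fold higher and began with gst-20 at -1.26, followed by gst-24 at 0.48 and gst-15 at -0.54. The others of that run, gst-14, gst-12, gst-16, gst-19, gst-17 and gst-18, lay between -0.06 and 0.13 after formaldehyde, and gst-18 alone of these was past the filter.

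In the 3-gene run of gst-6, gst-7 and gst-8 on chromosome II the differences after formaldehyde were 1.05, 0.27 and 0.05 along the chromosome. In the run of gst-3, gst-2 and gst-4 on chromosome IV they were -0.13, 0.00 and 0.88, with gst-3 and gst-2 below the filter. The fifth run held gst-32, also below the filter at -0.01, and gst-34 and gst-35. gst-36 on chromosome X, gst-10 on chromosome V, gsto-1 on chromosome III and gst-5 on chromosome II stood in no run.

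Genes that make, recycle or use glutathione, and the regulators of SKN-1, were taken from 6 lists. Of 47 measured genes none was 2-fold higher or lower in any exposure at any level, beside the 2.82% of all unfiltered genes higher and 1.41% lower after formaldehyde. Their median was 0.03 after formaldehyde and 0.04 after the mix. gcs-1, which encodes the rate-limiting enzyme of glutathione synthesis and is a SKN-1 target, had 301 with benzene, 329 with toluene, 244 with formaldehyde and 234 with the mix, against 310.2 in control. It thus lay below control (-0.33 and -0.38) on both arrays on which gst-26 was highest. The glutathione synthetase gene gss-1 stood at 0.03 after formaldehyde and 0.12 after the mix, and the glutathione reductase gene gsr-1 at 0.15 and 0.14. trxr-1, a thioredoxin reductase gene, was the lowest of the 47 after formaldehyde (-0.87), and the glutaredoxin gene glrx-10 stood at 0.62.

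**Figure D5:**
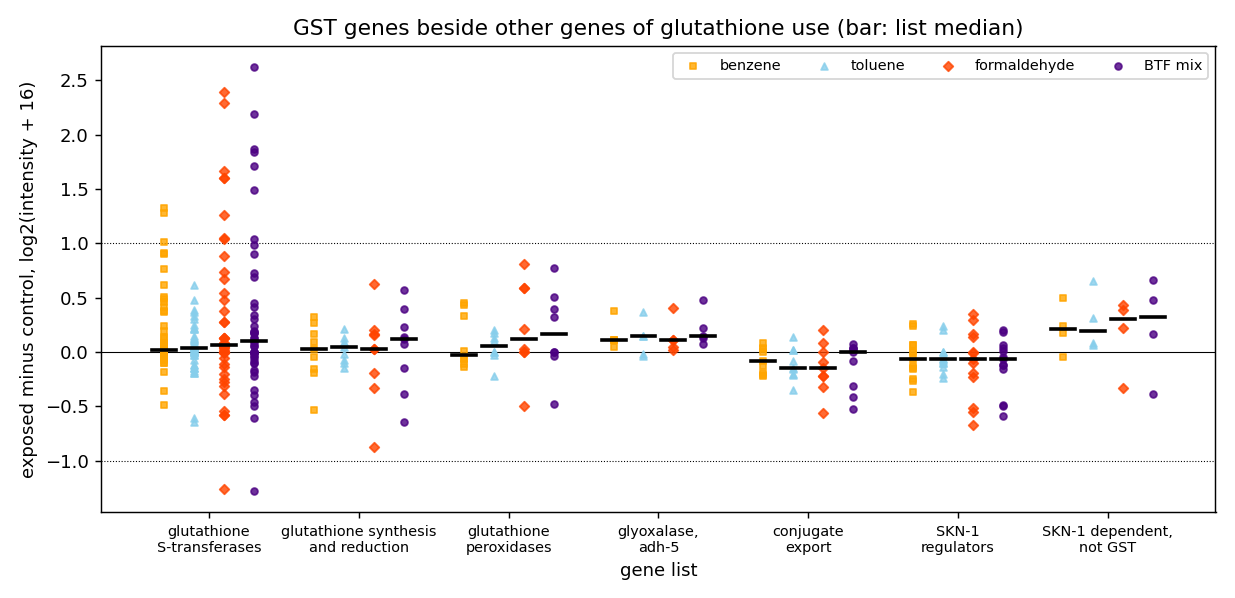
Log2 difference from control of GST genes and of 6 lists of related genes, 1 point per gene and exposure, with the list median as a bar and dotted lines at 2-fold. All points beyond 2-fold belong to the GST genes, and the medians of all lists lie between -0.15 and 0.32 on the deposited scale.

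Among 8 glutathione peroxidase genes, gpx-7 stood at 0.81 and gpx-1 at 0.59 after formaldehyde, and at 0.51 and 0.77 after the mix. The lowest, gpx-6, stood at -0.495 and -0.475. The median of the peroxidase genes was 0.12 after formaldehyde and 0.16 after the mix. adh-5, whose product clears the glutathione adduct of formaldehyde, had 407 with benzene, 368 with toluene, 409 with formaldehyde and 442 with the mix, against 377 in control, so its difference after formaldehyde was 0.11. The 9 genes of conjugate export (the mrp transporters and hmt-1) had a median of -0.15 after formaldehyde, and the largest difference was that of mrp-5 (-0.56). skn-1 itself stood at 0.17 after formaldehyde and 0.18 after the mix, and wdr-23, which encodes its inhibitor, at -0.06 in both. Kinase genes of the pathway ranged after formaldehyde from sek-1 at -0.67, pmk-1 at -0.55 and gsk-3, below the filter, at -0.19 through akt-1 at -0.10 and sgk-1 at 0.00 to akt-2 at 0.29, none of them 2-fold away. SKN-1 dependent genes that are not GSTs were mixed: nit-1 stood at 0.43, sdz-8 at 0.39 and dhs-8, below the filter, at 0.22 after formaldehyde, beside gcs-1 at -0.33.

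Markers of some tissues differed on the same arrays. Of 5 intestine markers 1 was 2-fold higher after formaldehyde: act-5, an actin gene of intestinal microvilli, had 1325 with benzene, 636 with toluene, 2717 with formaldehyde and 2484 with the mix, against 511 in control. The other 4, elt-2, ges-1, vha-6 and ifb-2, stood at 0.03, 0.54, 0.56 and 0.71 after formaldehyde. The summed intensity of the 5 was 3181 with benzene, 2164 with toluene, 4929 with formaldehyde and 4534 with the mix, against 1978 in control. Most of its rise was that of act-5, whose probe set is marked as able to bind several transcripts. All 3 sperm markers were 2-fold higher after formaldehyde, and 2 of the 3 after the mix, where spe-11 stood at 0.82. The gsp-3 and gsp-4 probe sets are marked as able to bind several transcripts, so their values may share signal. The sum of the 3 was 527 with benzene, 432 with toluene, 1067 with formaldehyde and 938 with the mix, against 303 in control. No marker of the 5 other lists was 2-fold away in any exposure. The summed intensities of the muscle, neuron and germline markers were below control on every exposed array. Of the neuron markers, rab-3 stood at -0.64 after formaldehyde, unc-119 at 0.04 and snb-1 at -0.15. The rab-3 probe set is also marked as able to bind several transcripts. Of the 3 hypodermis markers, rol-6 stood at 0.98, col-19 at 0.68 and dpy-7 at -0.12 after formaldehyde. Their summed intensity, mostly that of col-19, was 5035 with benzene, 4899 with toluene, 6279 with formaldehyde and 5619 with the mix, against 3972 in control. The part of these tissues in the GST values was not tested.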

How the data were processed

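Values were deposited by the authors as linear probe set intensity values (9.15 to 22222) for 22625 probe sets on 5 arrays. Per the labels' protocols, 300 ng of total RNA per array gave biotinylated cRNA by a 3' priming kit. Per the submitters' processing notes, RMA, Affymetrix Expression Console 1.1 and MAS5 were used; no source used here gives the role of each or the scaling between arrays. Intensities were not tested for detection.

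Gene names came from the platform annotation, matched through Entrez identifiers to RefSeq (WBcel235), where all 45 members matched. Probe sets naming several genes (887), none (895) or controls (77) stayed out of gene counts. For a gene with several probe sets, the one of highest mean log2 level was used. Of the members, 44 had 1 probe set. The number of arrays limits the precision, and no test was possible with 1 array per group.

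The members, lists, threshold and settings were chosen with earlier results of these data known. Named were members 2-fold away in any comparison, the 4 past the filter closest to control (by their largest absolute difference), and members representing classes or used as markers; any other gene was picked with its values in view. No sequences are shown. Alternatives were other level filters, scalings, pseudocounts, probe set choices and a 1.5-fold threshold. Steps were tested on simulated data (Python 3.11.15, pandas 2.3.3).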

Additional observations from a re-analysis of the deposited data

Results flagged for a closer look

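A probe set that names both F56A4.3 and gst-10 was left out of the gene counts because its signal cannot be given to one gene. It was higher than in control on every exposed array, with 197 with benzene, 131 with toluene, 328 with formaldehyde and 327 with the mix, against 115 in control. Its differences of 0.71, 0.17, 1.40 and 1.39 stand beside those of the probe set that names gst-10 alone, 0.91, 0.37, 1.67 and 1.87 in the same order.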

How the results depend on the processing

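No paired analysis was possible because each group is 1 array. Counts and medians over the 45 members were computed again under 10 alternatives, and 181 values stayed within 1.5 times (counts) or 0.1 (medians), while 29 moved. Part of the 181 could not move. The medians take all members, so other level filters and the 1.5-fold threshold leave them as they were. Averaging probe sets leaves the differences of the 44 members with 1 probe set as they were. With poly-A scaling the medians moved to 0.39 (benzene), 0.15 (toluene) and -0.29 (mix) against control. Those between exposures moved to 0.25 for benzene minus toluene, -0.19 for formaldehyde minus benzene and -0.51 for mix minus formaldehyde. For all genes, poly-A scaling gave 0.30, 0.08 and -0.45 against control, and 0.23, -0.24 and -0.57 between exposures, in the same order. Under it 6 members were 2-fold higher after benzene (3.31% of all genes past the filter), 2 were lower after the mix (9.63%), 1 was higher after benzene than toluene (0.623%), and between formaldehyde and benzene 0 were higher (0.127%) and 1 lower (2.5%). A pseudocount of 64, which damps dim genes by construction, left 5 members higher after formaldehyde (3.23% of genes), 1 after benzene (0.74%) and 0 for formaldehyde over benzene (0.487%). For that last pair, 2 were higher with a pseudocount of 1 (1.38%) and 2 with quantile normalization (1.25%). The 60th percentile filter, under which fewer genes are counted, left 5 higher after formaldehyde (4.72%). Without s and x probe sets, which removes gst-20 and 7 other members, 0 were lower after formaldehyde (2.14%) and 0 after the mix (2.18%), and 1 was higher after benzene than toluene (0.171%), as it was with no filter (0.117%). At 1.5-fold, 6 were higher after benzene (3.48% of genes), 1 higher (1.57%) and 2 lower (0.789%) after toluene, 11 higher (8.46%) and 2 lower (6.63%) after the mix, 3 higher for benzene over toluene (1.02%), and 6 higher (4.47%) and 1 lower (3.77%) for formaldehyde over benzene. Where no construction is named, the cause was not tested. Single-gene values were followed only for members 2-fold away in some comparison, gst-21 included. Members short of 2-fold, such as gst-4 and gst-39, were left out of this tally. Of the values followed, 455 kept their side of 2-fold, 9 crossed it outward and 12 inward, and none changed sign while 2-fold away. The 455 include values that could not cross. Each member followed had 1 probe set, so averaging probe sets or leaving out s and x probe sets could not change its value. Dim signal and 1 array per group limit all values.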
